A study of Homo sapiens with 6 samples.

Results

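Expression of the constitutive proteasome subunits in PC-3/Mc cells was set against that in PC-3/S cells. Both are sublines of PC-3, a human prostate carcinoma cell line established from a metastasis to bone. Members were all probe sets whose platform annotation gave a single gene symbol of the PSMA, PSMB, PSMC or PSMD families, except PSMB8, PSMB9 and PSMB10. The rule itself uses no measured value, but it was chosen with earlier results of these data known. It gave 58 of the 54675 probe sets, which stand for 31 of the 19775 genes tested. The series concerns the epithelial-mesenchymal transition and the traits of tumor-initiating cells. Each line was measured on 3 one-colour Affymetrix arrays, numbered as biological replicates 1 to 3, and no treatment is given for either line. Cells were harvested at 70 to 80% confluence. Both lines derive from 1 parental line, so that replicates are samples of the same 2 sublines and not of independent tumors. The labels do not say whether they came from separate cultures, so the p-values cover no more than the spread among these arrays, which may be technical. Values are log2 expression as deposited, each difference is the PC-3/Mc mean less the PC-3/S mean, in log2 units with its standard error, and adjusted p-values are from limma with Benjamini-Hochberg adjustment over all genes (n = 3 arrays per line).

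The proteasome degrades proteins that carry ubiquitin. Its barrel-shaped core, the 20S particle, has outer rings of alpha subunits, which control entry, and inner rings of beta subunits, of which PSMB5, PSMB6 and PSMB7 carry the proteolytic sites. The 19S regulatory particle caps the core: ATPases of its base unfold the substrate and feed it inward, and its lid removes the ubiquitin. Cells exposed to interferon can replace the 3 proteolytic subunits by PSMB8, PSMB9 and PSMB10, the immunoproteasome. The transcription factor NFE2L1 is known to induce the subunit genes together when proteasome activity falls short.

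The 6 arrays had medians between 4.98 and 5.09, and correlations across probe sets were 0.995 to 0.997 within a line and 0.949 to 0.953 between the lines. The 3' minus 5' difference of the ACTB control, a sign of RNA degradation when large, averaged 0.055 ± 0.121 on PC-3/Mc arrays and 0.129 ± 0.059 on PC-3/S arrays (SD, n = 3 each, exact permutation p = 0.6, with 0.1 the smallest p possible). That of the GAPDH control averaged -0.033 ± 0.066 on PC-3/Mc arrays and 0.041 ± 0.031 on PC-3/S arrays (exact permutation p = 0.3). Of the 5 carcinoma markers, KRT8, KRT18, EPCAM and CDH1 were higher in PC-3/Mc, by 1.03 to 5.43, and KRT19 was lower (-0.48, adjusted p = 0.00036). All 3 leukocyte markers measured (PTPRC, CD3E and CD14) read below 5.18 in both lines. That value is the highest reading of CTNNA1, which PC-3 cells are known to lack through a deletion, and serves here as a rough floor. CDH1 lay under it in PC-3/S. Of 4 endothelial markers, VWF and CDH5 lay under the floor in both lines, and of 6 fibroblast markers PDGFRB did. The others differed between the lines in both directions, among them COL1A2 (8.48 in PC-3/Mc, against 4.36 in PC-3/S), COL1A1 (7.39 against 7.67), PECAM1 (7.18 against 6.58) and KDR (4.06 against 6.23). Their part in the subunit differences was not tested.

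Subunit genes were more often higher than lower in PC-3/Mc, by small amounts. Of the 31 genes, 16 (51.6%) were called higher, where 23.2% of all genes were, and 3 (9.68%) were called lower, where 22.7% of all genes were. The remaining 12 were not called. The median difference of the members was 0.23, or 1.17-fold, against -0.03 over all genes. It was 0.12 after quantile normalization and 0.37 when the most variable probe set stood for each gene. No member differed by 2-fold: the differences ran from -0.26 for PSMA3 to 0.86 for PSMA1. Among genes at or above the 40th percentile of mean level, 36.5% were higher and 32.3% lower, and 16 and 4 of the 30 members in that set were called. No array overlapped between the lines for 19 members with higher readings in PC-3/Mc (26.3% of all genes) and for 6 with lower ones (26.8% of all genes).

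Each member was also set against its own mean over the 6 arrays. The median deviation was 0.11, 0.11 and 0.15 on the PC-3/Mc arrays, against -0.09, -0.12 and -0.15 on the PC-3/S arrays. All 3 arrays of PC-3/Mc thus lay above all 3 of PC-3/S for the subunits, while the same median over all genes stayed between -0.04 and 0.03. The number of members lower in PC-3/Mc was 0 when arrays were centred on their medians (19.5% of all genes) and 5 after quantile normalization (24.1% of all genes). It was 1 when any single PC-3/S array was left out (19.4%, 20.1% and 21.5% of all genes).

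**Figure D1:**
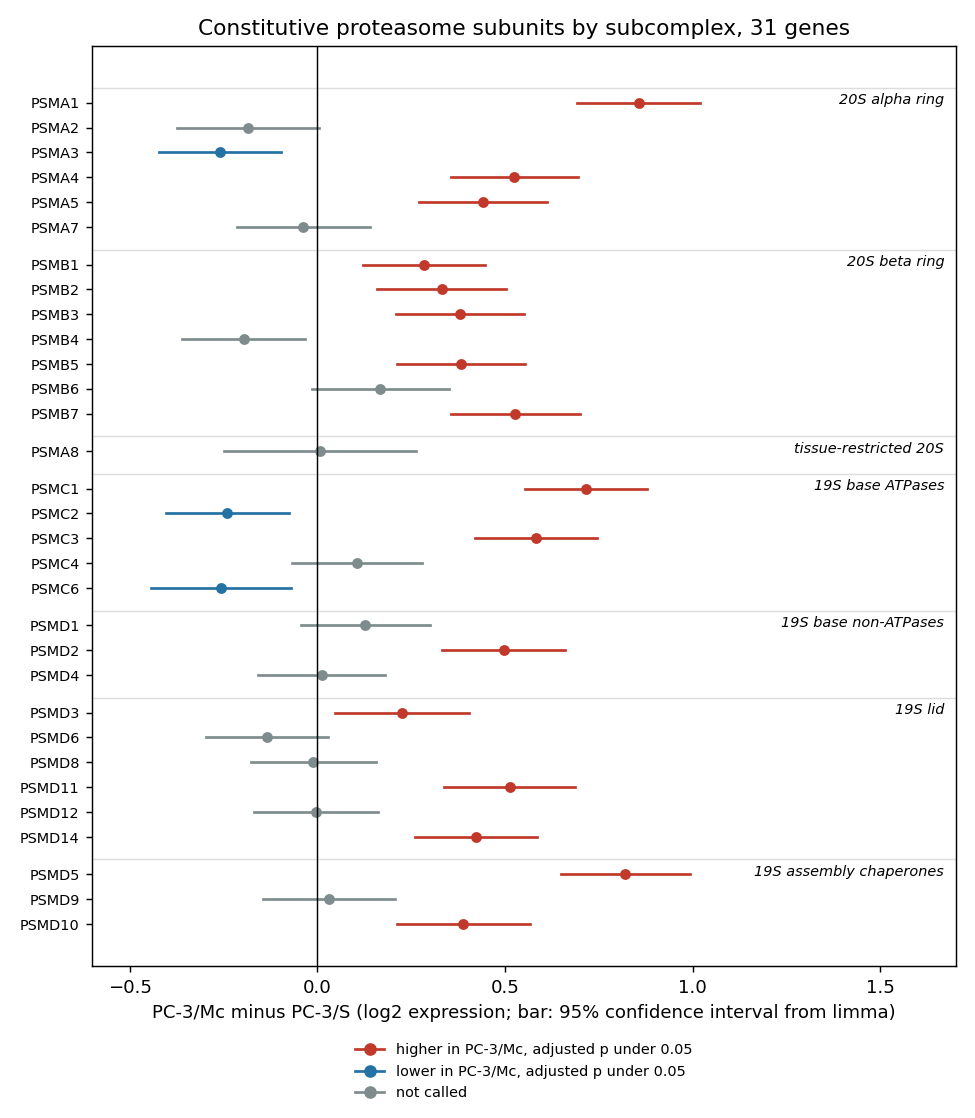
Difference of each of the 31 subunit genes (x axis, log2, PC-3/Mc minus PC-3/S) with its 95% confidence interval from limma, grouped by subcomplex. The 16 genes called higher in PC-3/Mc occur in every subcomplex except the tissue-restricted one, and the 3 called lower, PSMA3, PSMC2 and PSMC6, lie between -0.24 and -0.26.

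Subunit genes can share promoter elements, and the promoter windows of 26 of the 31 genes were found in the RefSeq table (build GRCh38.p14, 30 windows of 250 bases before to 50 after the start). PSMA7, PSMB1, PSMB6, PSMB7 and PSMD4 had no entry there. The antioxidant response element that NFE2L1 and its relatives bind was searched as TGACNNNGC on both strands, the NF-Y box as CCAAT and the MYC E-box as CACGTG. TGACNNNGC was found in 8 of the 30 windows (26.7%), against 13.3% of the 35116 windows of the table. CCAAT was found in 14 (46.7%), against 34.6%, and CACGTG in 2 (6.67%), against 7.26%. No hits of different motifs overlapped in the members' windows. Over all genes, 23.2% were called higher and 22.7% lower. Among the 8 genes with TGACNNNGC, 4 were called higher and 0 lower, with a median difference of 0.18; among the 18 without it, 10 were higher and 3 lower, with a median of 0.36. Among the 14 genes with CCAAT, 9 were higher and 2 lower (median 0.36), and among the 12 without it 5 were higher and 1 lower (median 0.12). PSMA1 and PSMC1, 2 of the 3 members with the largest differences, held none of the 3 motifs in their windows. A match is a description of the letters and not of binding.

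The members with TGACNNNGC before the start are shown because the group holds genes that were higher (PSMD5, PSMA4, PSMB3 and PSMD3) and genes that were not called (PSMD12 and PSMD9). Each line reads 5′ to 3′ on the strand of the gene, and capitals mark the motif, which in the PSMD9 stretch lies on the other strand and is read there as its reverse complement. PSMD9 holds a second match on its own strand, 102 bases before the start, outside the stretch, and PSMD3 a second one after the start. PSMA4 had 3 windows, of which 1 holds the motif. It begins 134 bases before the start in PSMD5, 126 in PSMA4, 104 in PSMB3, 37 in PSMD3, 165 in PSMD12 and 149 in PSMD9.
PSMD5 (chr9:120843028-120843086, minus strand): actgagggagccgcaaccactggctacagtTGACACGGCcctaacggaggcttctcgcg
PSMA4 (chr15:78540630-78540688, plus strand): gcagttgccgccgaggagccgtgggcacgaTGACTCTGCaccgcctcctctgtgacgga
PSMB3 (chr17:38752607-38752665, plus strand): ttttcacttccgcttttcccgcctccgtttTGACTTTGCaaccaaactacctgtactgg
PSMD3 (chr17:39980740-39980798, plus strand): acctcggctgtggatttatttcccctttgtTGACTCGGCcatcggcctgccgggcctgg
PSMD12 (chr17:67366714-67366772, minus strand): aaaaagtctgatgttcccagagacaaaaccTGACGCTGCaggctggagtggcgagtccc
PSMD9 (chr12:121888611-121888669, plus strand): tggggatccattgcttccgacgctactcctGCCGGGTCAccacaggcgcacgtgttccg

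The next set holds CCAAT, in capitals, in members that were higher (PSMA5 and PSMB5) and in members that were lower (PSMA3 and PSMC2). In PSMA3 the capitals show 2 matches, the first of them on the other strand and read as ATTGG. PSMB5 had another window, for a different start, with no CCAAT, and PSMA5 holds a second match 54 bases before the start, outside the stretch.
PSMA5 (chr1:109426507-109426561, minus strand): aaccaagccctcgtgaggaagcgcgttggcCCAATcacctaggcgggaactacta
PSMB5 (chr14:23035360-23035414, minus strand): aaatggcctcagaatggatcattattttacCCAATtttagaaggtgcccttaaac
PSMA3 (chr14:58244778-58244832, plus strand): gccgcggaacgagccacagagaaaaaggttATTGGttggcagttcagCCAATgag
PSMC2 (chr7:103347582-103347636, plus strand): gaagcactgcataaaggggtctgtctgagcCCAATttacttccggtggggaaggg

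Alpha ring genes, whose products gate the core, gave 3 higher, 1 lower and 2 not called of 6. Over all genes, 23.2% were higher and 22.7% lower, and among genes at or above the 40th percentile of mean level 36.5% and 32.3%. Each subcomplex holds few genes, and its counts were not tested against these shares. PSMA1 read 12.03, 12.09 and 12.05 in PC-3/Mc, against 11.19, 11.23 and 11.18 in PC-3/S. Its arrays were far apart between the lines, a difference of 0.86 ± 0.07 or 1.81-fold (adjusted p = 3e-06), and its other 2 probe sets differed by 0.84 and 1.01. PSMA4 read 11.40, 11.49 and 11.35 in PC-3/Mc, against 10.89, 10.87 and 10.91 in PC-3/S (0.52 ± 0.08, 1.44-fold, adjusted p = 0.00017). PSMA5 read 10.99 to 11.14 in PC-3/Mc, against 10.60 to 10.64 in PC-3/S (0.44 ± 0.08, adjusted p = 0.00064), but the mean of its probe sets, 1 of which is under the floor, was not called (0.08, adjusted p = 0.429). PSMA3 ran the other way. It read 11.85, 11.91 and 11.90 in PC-3/Mc, against 12.13, 12.15 and 12.16 in PC-3/S, with no overlap (-0.26 ± 0.07, adjusted p = 0.013). With arrays centred on their medians PSMA3 was no longer called (-0.21, adjusted p = 0.055), nor was it on the mean of its probe sets (-0.17, adjusted p = 0.134). PSMA2 (-0.19 ± 0.09, adjusted p = 0.11) and PSMA7 (-0.04 ± 0.08, adjusted p = 0.75) were not called, and PSMA6 is not analysed here because it had no probe set with a single symbol.

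The beta ring gave 5 higher and 0 lower of 7 (23.2% and 22.7% of all genes), with a median difference of 0.33. Of the proteolytic subunits, PSMB7, the trypsin-like one, read 12.26, 12.18 and 12.31 in PC-3/Mc, against 11.76, 11.74 and 11.67 in PC-3/S (0.53 ± 0.08, 1.44-fold, adjusted p = 0.00019). PSMB5, the chymotrypsin-like one and the main target of bortezomib, read 11.63, 11.63 and 11.72 in PC-3/Mc, against 11.32, 11.30 and 11.21 in PC-3/S (0.38 ± 0.08, 1.30-fold, adjusted p = 0.0017). PSMB6, the caspase-like one, read 11.32, 11.33 and 11.42 in PC-3/Mc, against 11.26, 11.23 and 11.07 in PC-3/S. Its arrays did not overlap, but the difference of 0.17 ± 0.08 was not called (95% confidence interval -0.02 to 0.35, adjusted p = 0.13). Of the structural beta subunits, PSMB3 read 11.71 to 11.80 in PC-3/Mc, against 11.32 to 11.44 in PC-3/S (0.38 ± 0.08, adjusted p = 0.0018). PSMB2 read 11.75 to 11.89 in PC-3/Mc, against 11.45 to 11.51 in PC-3/S (0.33 ± 0.08, adjusted p = 0.0046). PSMB1 averaged 12.24 ± 0.01 in PC-3/Mc, against 11.96 ± 0.04 in PC-3/S (SD, n = 3 each, difference 0.28 ± 0.07, adjusted p = 0.0081). These 3 genes were thus higher without overlap, each by less than PSMB7. On its most variable probe set, under the floor on all 6 arrays, PSMB1 was not called (0.10, adjusted p = 0.631). The other bright probe set of PSMB1 was higher by 0.35 (adjusted p = 0.0048 over all probe sets). PSMB2 lost its call on its most variable probe set (0.37, adjusted p = 0.113), while a dimmer one was higher by 0.33 (adjusted p = 0.02 over all probe sets). PSMB4 differed by -0.20 ± 0.07 and fell short of the threshold (adjusted p = 0.051). Its probe sets disagreed: the dimmest of the 3 was higher by 0.43 ± 0.11 (adjusted p = 0.01 over all probe sets), the other bright one was at -0.16. The core subunits of restricted tissues were represented by PSMA8 alone, known from testis. It read 3.86 to 4.35 in PC-3/Mc, against 4.09 to 4.14 in PC-3/S, below the floor in both lines.

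The immunoproteasome subunits that can take the places of PSMB5, PSMB6 and PSMB7 went another way in part. PSMB8 read 6.81, 6.80 and 6.74 in PC-3/Mc, against 9.07, 9.02 and 9.14 in PC-3/S, a difference of -2.30 ± 0.08 (adjusted p = 2.1e-09). PSMB9 read 3.91, 3.81 and 4.21 in PC-3/Mc, against 7.81, 7.63 and 7.71 in PC-3/S. Its PC-3/Mc arrays lay under the floor, so that it was at least 5.82-fold lower there (adjusted p = 8e-10). PSMB10 moved with the constitutive genes, with 8.53, 8.35 and 8.50 in PC-3/Mc, against 7.83, 7.69 and 7.75 in PC-3/S (0.70 ± 0.08, adjusted p = 3.8e-05).

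Within each array the log2 value of the constitutive partner was subtracted from that of the immunoproteasome subunit, and this quantity was compared between the lines for the 3 pairs. It differed by -2.68 ± 0.08 for PSMB8 and PSMB5 and by -3.91 ± 0.12 for PSMB9 and PSMB6 as measured. For PSMB10 and PSMB7 it differed by 0.18 ± 0.05. No array overlapped between the lines in any of the 3 pairs, and each exact permutation test gave a two-sided p = 0.1, before and after Benjamini-Hochberg adjustment over the 3 pairs, the smallest p that 3 arrays against 3 allow.

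**Figure D2:**
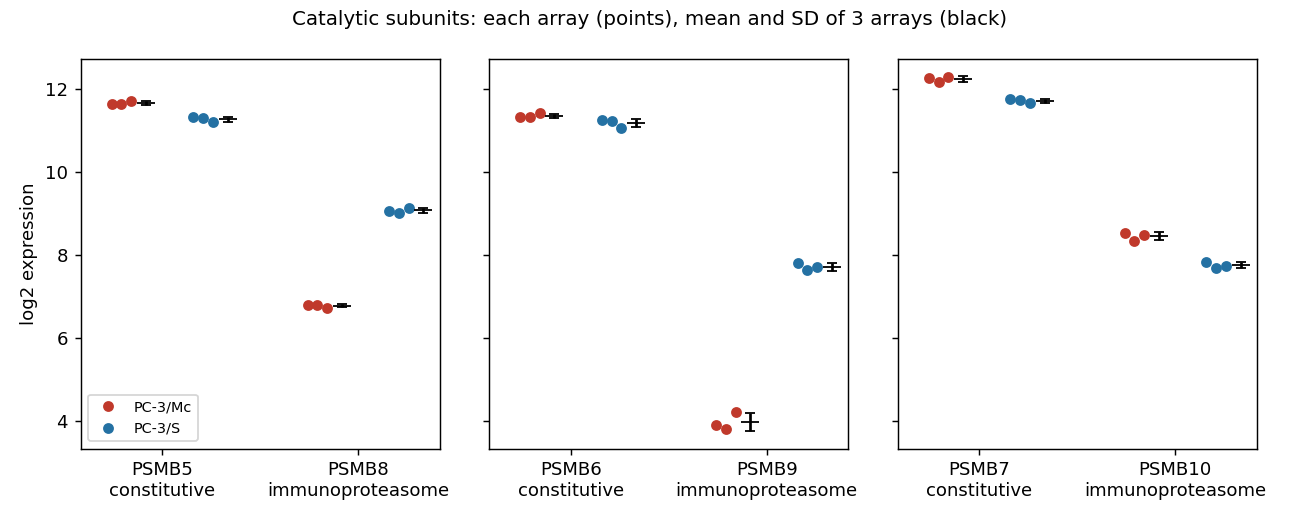
Log2 expression (y axis) of the constitutive proteolytic subunits and of the immunoproteasome subunits that replace them, with a point for each array and the mean and SD of 3 arrays in black. PSMB8 and PSMB9 lie lower in PC-3/Mc (-2.30 and -3.74 as measured), while PSMB5, PSMB7 and PSMB10 are higher by 0.38, 0.53 and 0.70; heights of different genes come from different probe sets and are not compared.

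The ATPases of the 19S base split, with 2 higher, 2 lower and 1 not called of 5. Over all genes, 23.2% were higher and 22.7% lower. PSMC1 read 12.12, 12.07 and 12.05 in PC-3/Mc, against 11.38, 11.37 and 11.35 in PC-3/S (0.71 ± 0.07, 1.64-fold, adjusted p = 1.2e-05). PSMC3 read 10.67, 10.65 and 10.71 in PC-3/Mc, against 10.12, 10.07 and 10.09 in PC-3/S (0.58 ± 0.07, 1.5-fold, adjusted p = 5.7e-05). Both were separated by far more than the spread within a line. PSMC2 read 11.86, 11.92 and 11.84 in PC-3/Mc, against 12.13, 12.10 and 12.12 in PC-3/S (-0.24 ± 0.07, adjusted p = 0.02). PSMC6 read 11.31, 11.44 and 11.21 in PC-3/Mc, against 11.54, 11.56 and 11.63 in PC-3/S (-0.26 ± 0.08, adjusted p = 0.029). The arrays of both genes were lower in PC-3/Mc without overlap. Both calls were lost when any single PC-3/S array was left out (adjusted p = 0.0539 to 0.072 for PSMC2 and 0.0596 to 0.09 for PSMC6) and with arrays centred on their medians (0.0902 and 0.107). The PSMC6 call was also lost without PC-3/Mc replicate 1 (0.0667) or 3 (0.0795), and that of PSMC2 without _s_at probe sets, which the manufacturer marks as shared by several transcripts (-0.05, adjusted p = 0.68). PSMC4 was not called (0.10 ± 0.08, adjusted p = 0.31), and PSMC5 is not analysed here.

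Of the base subunits that are not ATPases, PSMD2, a scaffold that docks ubiquitin-like domains, read 12.30, 12.20 and 12.26 in PC-3/Mc, against 11.75, 11.77 and 11.75 in PC-3/S (0.50 ± 0.07, 1.41-fold, adjusted p = 0.0002). PSMD1, the other large scaffold, read 11.84, 11.73 and 11.83 in PC-3/Mc, against 11.69, 11.72 and 11.61 in PC-3/S, and was not called (0.13 ± 0.08, adjusted p = 0.22). PSMD4, a ubiquitin receptor, read 11.31, 11.25 and 11.31 in PC-3/Mc, against 11.33, 11.30 and 11.21 in PC-3/S. Its arrays overlapped, and the interval of the difference was -0.16 to 0.18 (adjusted p = 0.92).

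The lid gave 3 higher, 0 lower and 3 not called of 6, where 23.2% of all genes were higher and 22.7% lower. PSMD11, whose abundance is known to promote assembly of capped proteasomes in human pluripotent stem cells, read 11.24, 11.17 and 11.24 in PC-3/Mc, against 10.77, 10.73 and 10.61 in PC-3/S (0.51 ± 0.08, 1.43-fold, adjusted p = 0.00027). PSMD14, the metalloprotease that cuts ubiquitin off the substrate, read 12.33, 12.29 and 12.29 in PC-3/Mc, against 11.92, 11.87 and 11.86 in PC-3/S (0.42 ± 0.07, 1.34-fold, adjusted p = 0.00061). PSMD3 read 8.81 to 8.98 in PC-3/Mc, against 8.66 to 8.72 in PC-3/S and passed narrowly (0.23 ± 0.08, adjusted p = 0.041), and its call was lost when PC-3/Mc replicate 2 or 3 or any PC-3/S array was left out (adjusted p = 0.0865 to 0.111). After quantile normalization PSMD3 differed by 0.12 (adjusted p = 0.301), and its call was lost in other alternatives too. PSMD6 (-0.13 ± 0.07, adjusted p = 0.17) and PSMD8 (-0.01 ± 0.08, adjusted p = 0.92) were not called. PSMD12 depended on its probe set: the brighter one was not called (-0.00 ± 0.07, 95% confidence interval -0.17 to 0.16, adjusted p = 0.98) and the other was higher by 0.43 ± 0.08 (adjusted p = 0.0011 over all probe sets). PSMD7 and PSMD13 are not analysed here.

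The 3 members that help to assemble the 19S base and are not part of the finished particle gave 2 higher and 0 lower. Over all genes, 23.2% were higher and 22.7% lower. PSMD5 read 9.34, 9.34 and 9.22 in PC-3/Mc, against 8.53, 8.44 and 8.47 in PC-3/S (0.82 ± 0.08, 1.77-fold, adjusted p = 6.4e-06). PSMD10, also known as gankyrin, read 11.32, 11.42 and 11.29 in PC-3/Mc, against 11.02, 10.96 and 10.88 in PC-3/S (0.39 ± 0.08, 1.31-fold, adjusted p = 0.002). Neither gene overlapped between the lines. PSMD9 did (0.03 ± 0.08, adjusted p = 0.79), although its dimmer probe set was higher by 0.26 (adjusted p = 0.043 over all probe sets).

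Tested one by one over all probe sets, 25 of the 58 member probe sets were higher (18.4% of all probe sets) and 4 lower (17.5% of all probe sets). Of the 58, 9 read at or under the floor on all 6 arrays. Leaving these out, 14 genes had more than 1 probe set, and the sign was the same on all of them for 10 genes. Their calls were of 1 kind for 9 genes and mixed for PSMB2, PSMB4, PSMC2, PSMD9 and PSMD12. PSMA1, PSMB1, PSMD10 and PSMD11 were called higher on every such probe set and PSMA3 lower on both of its own, the dimmer of which read 4.91 to 5.24 in PC-3/Mc, against 5.30 to 5.62 in PC-3/S, close to the floor.

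**Figure D3:**
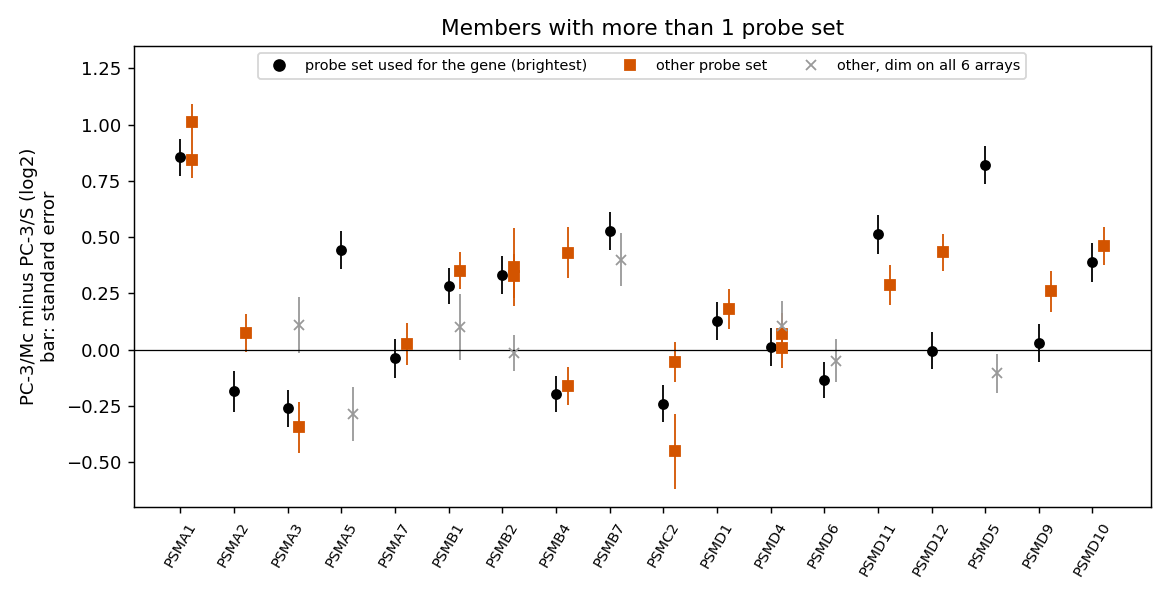
Difference (y axis, log2, PC-3/Mc minus PC-3/S, bars are standard errors) of each probe set of the 18 members with more than 1, black for the brightest, which stands for the gene, orange for the others and grey crosses for those at or under 5.18 on all 6 arrays. The 3 probe sets of PSMA1 lie between 0.84 and 1.01, whereas those of PSMB4 and PSMD12 lie apart by 0.63 and 0.44.

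Sublines of a tumor line can differ in the level of whole chromosome stretches, so each member was set beside its neighbours, the 10 measured genes on either side in RefSeq gene order, with only 12 in all for PSMB1. PSMC6 on chromosome 14 stood among neighbours with a median difference of -0.41, of which 12 of 20 were called lower and 3 higher. PSMA3, also on chromosome 14, had neighbours at -0.21, with 9 lower and 0 higher. PSMC3 on chromosome 11 was among neighbours at 0.35, with 10 higher and 2 lower. PSMA1 on chromosome 11 had neighbours at 0.17, with 9 higher and 1 lower, well short of its own 0.86. PSMC1, likewise on chromosome 14, had neighbours at -0.03, with 7 higher and 3 lower. PSMA5 on chromosome 1 ran against its neighbours, which lay at -0.20, with 2 higher and 9 lower. Over the 31 members the difference and the median of the neighbours had a Pearson correlation of 0.63 (Spearman 0.63), and over 19723 genes placed in the same way it was 0.22 (0.26). Members and neighbours share the same arrays, so these correlations are a description. The difference exceeded the neighbours' median for 25 of the 31 members, and the 16 members called higher had neighbours with a median of 0.01. The difference itself was positive for 22 of the 31. The share of all genes above their neighbours' median is not given here, so the count of 25 has no background beside it. The part of chromosome position in the differences was not tested.

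**Figure D4:**
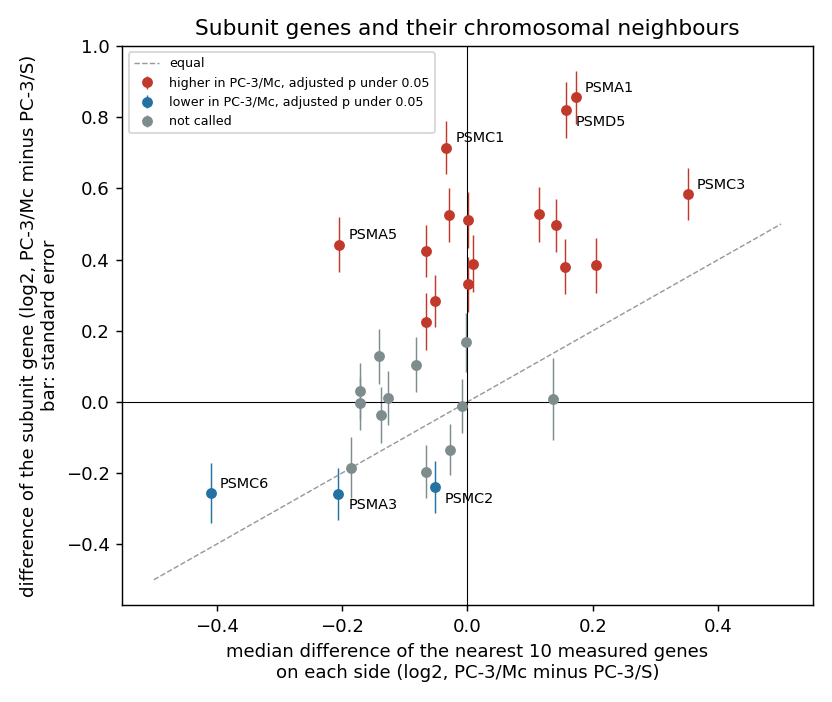
Difference of each of the 31 subunit genes (y axis, log2, PC-3/Mc minus PC-3/S, bars are standard errors) against the median difference of the 10 nearest measured genes on each side (x axis, log2). Of the members, 25 lie above the dashed line of equal values, and PSMC6 and PSMA3, lower in PC-3/Mc, have neighbours at -0.41 and -0.21.

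Genes that build, bind or regulate the complex but fall outside the member families were mixed. Among genes at or above the 40th percentile of mean level, 36.5% were higher and 32.3% lower. Each list of such partner genes is short, and its counts were not tested against any share. Of 7 other proteins bound to the 19S particle, 3 were higher and 1 lower (23.2% and 22.7% of all genes). ECPAS, which tethers core and cap (0.88 ± 0.09), and the deubiquitinases UCHL5 (0.43) and USP14 (0.37) were higher, the small lid subunit SEM1 was lower (-0.41 ± 0.08, adjusted p = 0.0011), and the ubiquitin receptor ADRM1 (0.21, adjusted p = 0.053), UBE3C (0.02) and TXNL1 (-0.06) were not called. Without _x_at and _s_at probe sets UCHL5 differed by 0.25 and was not called (adjusted p = 0.0824). Of the 7 genes of proteasome assembly and nuclear import, 4 were higher and 1 lower (23.2% and 22.7% of all genes). AKIRIN2, needed to bring proteasomes into the nucleus, differed by 1.21 ± 0.08 or 2.31-fold (adjusted p = 6.6e-07), and the assembly chaperones PSMG2 (0.57), PSMG4 (0.39) and PSMG1 (0.36) were higher. PSMG4 differed by 0.07 on the mean of its probe sets (adjusted p = 0.456) and by -0.11 without _x_at and _s_at probe sets (adjusted p = 0.518). The other probe sets of PSMG4 averaged 2.94 to 5.25 in the lines, under or close to the floor. The PSMG4 call was also lost when PC-3/Mc replicate 2 (0.0506) or replicate 1 of PC-3/S (0.0604) was left out. PAAF1, another gene of proteasome assembly, was lower (-0.23). Its call was lost when PC-3/Mc replicate 2 or 3 or any PC-3/S array was left out (adjusted p = 0.0648 to 0.1). PSMG3 (0.16) and POMP (0.17) were not called.

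Of the activators and the inhibitor, 1 of 4 was higher and 3 lower (23.2% and 22.7% of all genes). PSME1, a subunit of the interferon-inducible cap, was lower (-0.85 ± 0.08, adjusted p = 4.8e-06) and PSME3, the nuclear cap, higher (0.88 ± 0.08, adjusted p = 3.1e-06). PSME4 (-0.31) and the inhibitor PSMF1 (-0.29) were lower, but not on the mean of their probe sets (-0.12, adjusted p = 0.178, and -0.13, adjusted p = 0.163). The PSMF1 call was also lost with arrays centred on their medians (adjusted p = 0.0709), without PC-3/Mc replicate 2 (0.0539) or 3 (0.0584) and without PC-3/S replicate 2 (0.053) or 3 (0.0789), and that of PSME4 without PC-3/S replicate 1 (0.0539). PSME2 is not analysed here.

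Among 5 transcriptional regulators, 1 was higher and 2 lower (23.2% and 22.7% of all genes). NFE2L1 itself read 9.27, 9.22 and 9.28 in PC-3/Mc, against 9.44, 9.36 and 9.41 in PC-3/S, slightly lower without overlap, but the difference was not called (-0.15 ± 0.07, adjusted p = 0.14). NGLY1, the glycanase that NFE2L1 needs for its activation, was higher (1.17 ± 0.07, 2.25-fold, adjusted p = 2.7e-07). NFE2L3, a relative of NFE2L1, was lower (-1.90 ± 0.10, adjusted p = 6e-08), as was BACH1, a repressor at the same element (-1.83 ± 0.14, adjusted p = 1.5e-06). NFE2L2, which also binds it, was not called (-0.24 ± 0.11, adjusted p = 0.097). Of the ubiquitin and activating enzyme genes measured, UBA1 was higher (0.33), UBA6 lower (-0.47) and UBB not called (0.02).

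Substrate shuttles and the unfoldase p97 gave 4 higher and 1 lower of 7 (23.2% and 22.7% of all genes). RAD23B, a shuttle that binds ubiquitin chains and the 19S particle, was higher by 1.01 ± 0.10 (2.01-fold, adjusted p = 7.8e-06), followed by UBQLN1 (0.60), UBQLN4 (0.43) and NPLOC4 (0.24). UBQLN4 was not called on the mean of its probe sets (0.16, adjusted p = 0.0706), nor was NPLOC4 after quantile normalization (0.14, adjusted p = 0.234) or when PC-3/Mc replicate 1 or 3 or any PC-3/S array was left out (0.0647 to 0.0876). UBQLN2 was lower (-0.35), although not on the mean of its probe sets (-0.22, adjusted p = 0.0919), without _x_at and _s_at probe sets (-0.09, adjusted p = 0.587) or without PC-3/S replicate 3 (0.0584), and VCP, which encodes p97 (-0.18, adjusted p = 0.074), and UFD1 (0.04) were not called.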

How the data were processed

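RNA of 3 PC-3/Mc and 3 PC-3/S arrays was analysed from the log2 expression values that the authors deposited, 54675 probe sets per array. No source used here gives the software, background correction or normalization, and per the labels the target was biotin-labelled by the manufacturer's procedure. Base 2 was inferred from the values (2.59 to 14.45). Arrays were grouped by title, and 0 further sample columns were present. Normalization makes each difference relative to the rest of the array.

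The platform annotation named 1 gene for 41091 probe sets, several for 1801 and none for 11721, beside 62 controls. The brightest probe set, by its mean over the 6 arrays, stood for each of 19775 genes. The test was lmFit and eBayes of limma 3.58.1 (R 4.3.3, two-sided, no covariates), checked on simulated data, and calls were made where the adjusted p was under 0.05. The number of arrays limits the precision (median standard error 0.092). Neighbour order and promoter windows came from RefSeq, GRCh38.p14; array coordinates were not used. Permutation tests used scipy 1.17.1.

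Every member and every gene of the partner lists was to be named, with values per array for the proteolytic subunits, the 2 largest differences in each subcomplex, called members against the majority, PSMD4, PSMD11, PSMD14, NFE2L1 and the immunoproteasome. Members and lists were chosen with earlier results of these data known. Alternatives were the mean or the most variable probe set, no _x_at and _s_at probe sets, quantile normalization, median centring, a filter on dim genes, a variance trend, the replicate number as a block and leaving out each array.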

Additional observations from a re-analysis of the deposited data

How the results depend on the processing

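Of the 16 genes called higher, 12 kept the call in each of the 14 alternatives that could test them: PSMA1, PSMA4, PSMB3, PSMB5, PSMB7, PSMC1, PSMC3, PSMD2, PSMD5, PSMD10, PSMD11 and PSMD14. PSMA5, PSMB1, PSMB2 and PSMD3 lost the call in some, and 0 of the 3 lower genes were called in all. The count of higher members was 15 to 16 with single arrays left out (21 to 23.5% of all genes), 15 with the replicate block (21.2% of all genes) and 11 of 24 without _x_at and _s_at probe sets (20.3% of all genes), where fewer members are tested. The count of lower members was 5 after quantile normalization, 0 with arrays centred, 6 with a variance trend (22.9% of all genes), 1 with the replicate block (19.8% of all genes) and 1 to 3 with single arrays left out (19.4 to 24.5% of all genes). The block left PSMC2 (adjusted p = 0.061), PSMC6 (0.0723), PSMD3 (0.0947) and PSMF1 (0.0651) uncalled. By subcomplex, the lower count of the alpha ring was 0 on mean probe sets (22% of all genes) and with centred arrays (19.5%). It was 2 after quantile normalization (24.1%) and with a variance trend (22.9%). The lower count of the beta ring was 1 after quantile normalization, with the dim filter (32.3% of the genes kept) and with the trend. That of the ATPases was 0 with centred arrays and with the replicate block (19.8%). It was 1 without _x_at and _s_at probe sets (20.1%), where 0 were higher (20.3%), and 0 to 2 with single arrays left out (19.4 to 24.5%). That of the lid was 1 with the trend, where 2 non-ATPases of the base were higher (24% of all genes). The median difference was 0.37 on the most variable probe sets and 0.12 after quantile normalization. Member probe sets called higher numbered 13 of 33 without _x_at and _s_at. Those called lower numbered 0 with centred arrays, 0 with the replicate block, 9 with the trend and 1 to 4 with single arrays left out. The shares of all probe sets in these alternatives are not given here, so these counts have no background beside them. In the main fit 18.4% of all probe sets were higher and 17.5% lower. Directions turned for PSMB4 (0.43 on its most variable probe set), PSMD12 (0.22 on mean and 0.43 on most variable probe sets) and PSMF1 (0.27, most variable). Without _x_at and _s_at probe sets, directions turned for PSMG4 (-0.11, on a probe set close to the floor) and COPS7B (-0.39). That of COPS7B also turned on mean probe sets (-0.0105). Each of these turns came with another choice of probe set, and why the probe sets disagree was not tested. PSMD12 in the main fit (-0.0036) and COPS7B on mean probe sets hardly differed between the lines. Uncalled members changed sign without a call in 17 of 426 comparisons. Same-numbered arrays of the 2 lines did not deviate together (correlations -0.01, -0.21 and -0.31). With so few arrays per line this cannot show whether they were handled as pairs, and the labels do not say. With about 1.2-fold differences, the scaling between arrays limits what can be called lower.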

Other observations

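The COP9 signalosome, a complex built like the 19S lid, removes the ubiquitin-like protein NEDD8. It gave 4 higher and 1 lower of 9 genes (23.2% and 22.7% of all genes), with a median difference of 0.20. Among genes at or above the 40th percentile of mean level, 36.5% were higher and 32.3% lower, and the counts were not tested against these shares. COPS3 (0.51 ± 0.07), COPS2 (0.36 ± 0.08), COPS7B (0.34 ± 0.09) and COPS7A (0.21 ± 0.07) were higher in PC-3/Mc, COPS6 was lower (-0.28 ± 0.07, adjusted p = 0.0086), and COPS5 (0.20), GPS1 (0.14), COPS4 (-0.07) and COPS8 (-0.17) were not called. The direction of COPS7B depended on its probe set. The other probe set of COPS6 differed by -0.03 and was not called (adjusted p = 0.8 over all probe sets). COPS7A passed narrowly (adjusted p = 0.04), and its probe set was not called over all probe sets (adjusted p = 0.07). Another probe set of COPS8 was lower (-0.25, adjusted p = 0.033 over all probe sets).

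PSMA3-AS1, an antisense RNA named for its place beside PSMA3 and chosen after its values were seen, was lower in PC-3/Mc on all 3 of its probe sets. The brightest read 7.34, 7.43 and 6.98 in PC-3/Mc, against 8.28, 8.23 and 8.32 in PC-3/S (-1.03 ± 0.11, adjusted p = 1.5e-05 over all probe sets), and the others differed by -0.77 and -0.73. PSMA3 itself differed by -0.26.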
